A study of Mus musculus with 14 samples.

Results

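The genes described here are the mouse variable segments of the T cell receptor (TCR) alpha chain, the Trav genes. They were taken as every row whose symbol starts with Trav and a number, which gave 128 of the 50508 symbols in each of 2 tables of bulk RNA-sequencing read counts. Segments were summed into 23 subgroups by the number before the hyphen, of which 9 hold 1 segment. The d and n that mark copies in duplicated stretches of the locus were dropped for this sum, so that Trav16, Trav16d-dv11 and Trav16n form 1 subgroup.

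The study dealt with ILTCk, αβ T cells of an innate-like kind with a killer programme, in tumours and with their thymic progenitors, and 5 groups of 2 libraries each are used. In the first table, ILTCkP are thymic ILTCk progenitors and CD8SP are CD8 single-positive thymocytes, both from C57BL/6 mice. The progenitors were gated as CD4 and CD8α negative or dull and stained negative with CD1d tetramer, a reagent for natural killer T cells. The second table holds NK1.1+ ILTCk, NK1.1- ILTCk and, as the cells they are set against, PD1+ Tconv. The last are conventional T cells that carry the inhibitory receptor PD-1. The model label is retrogenic for all 6 libraries. Retrogenic mice are rebuilt from blood stem cells that carry an introduced TCR; which receptor was introduced, and what other T cells the hosts had, is not given in the sources used here. NK1.1+ ILTCk and PD1+ Tconv were sorted from tumours as CD45+ TCRβ+ CD8α+ cells negative for γδ TCR and CD4. The NK1.1+ ILTCk were PD-1 negative, and the PD1+ Tconv were positive for PD-1 and lacked NK1.1. The gate and tissue of NK1.1- ILTCk are not given. Another label of both ILTCk groups reads ILTCkP, and the sample titles were followed here. The labels name replicates but no separate animals, so p-values measure only how far these samples lie apart, a spread that may be technical.

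A TCR alpha chain is made when a developing thymocyte cuts its DNA and joins 1 variable segment to 1 joining segment (Traj), which is then spliced to the constant gene Trac. The variable segment encodes most of the antigen-contacting loops of the chain and the start of the last one, CDR3. Joining begins with variable segments near the Traj cluster and can move outwards, so the position of a segment on the chromosome bears on its use. A mixed T cell population spreads its Trav reads over many segments, and a clone that has expanded, or an introduced receptor, concentrates them on 1. All 128 symbols were found in GENCODE release M21, on the plus strand of mouse chromosome 14 (GRCm38), from Trav1 at chr14:52427928-52428876 to Trav23 at chr14:53977153-53977678. The joining segments follow from 54155005 to 54218842, and Trac lies at chr14:54220521-54224206. Of the 128 segments 108 were annotated as genes and 20 as pseudogenes.

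The segments that carry the results are shown first, as spliced exon sequence on GRCm38, plus strand, 5′ to 3′, with the intron left out. Trav12-2 led every thymic library. Trav5-1, Trav16 and Trav14-1 took the highest shares in the PD1+ Tconv libraries. In these 4 the capitals mark the last in-frame cysteine codon, where CDR3 begins. Trav12-2 (chr14:53616315-53616914), Trav5-1 (chr14:52622566-52623082), Trav16 (chr14:53743104-53743705) and Trav14-1 (chr14:53554022-53554558) each have 2 exons and are given by the last 300 of 344, 343, 350 and 364 spliced coding bases.
Trav12-2: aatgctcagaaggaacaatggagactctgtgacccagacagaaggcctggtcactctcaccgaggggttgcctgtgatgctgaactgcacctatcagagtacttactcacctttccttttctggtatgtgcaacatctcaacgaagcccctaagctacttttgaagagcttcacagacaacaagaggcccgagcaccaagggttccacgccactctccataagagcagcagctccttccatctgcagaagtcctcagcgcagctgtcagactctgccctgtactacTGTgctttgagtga
Trav5-1: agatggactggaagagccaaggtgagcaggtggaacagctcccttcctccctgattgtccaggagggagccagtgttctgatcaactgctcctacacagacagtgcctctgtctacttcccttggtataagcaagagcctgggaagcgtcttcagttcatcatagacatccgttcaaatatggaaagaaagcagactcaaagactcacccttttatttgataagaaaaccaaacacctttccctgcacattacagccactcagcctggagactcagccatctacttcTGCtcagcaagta
Trav16: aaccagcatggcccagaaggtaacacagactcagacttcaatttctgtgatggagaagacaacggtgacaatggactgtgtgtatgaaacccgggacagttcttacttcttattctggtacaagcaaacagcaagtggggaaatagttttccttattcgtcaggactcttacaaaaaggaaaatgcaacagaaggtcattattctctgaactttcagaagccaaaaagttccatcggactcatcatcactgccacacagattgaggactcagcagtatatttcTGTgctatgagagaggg
Trav14-1: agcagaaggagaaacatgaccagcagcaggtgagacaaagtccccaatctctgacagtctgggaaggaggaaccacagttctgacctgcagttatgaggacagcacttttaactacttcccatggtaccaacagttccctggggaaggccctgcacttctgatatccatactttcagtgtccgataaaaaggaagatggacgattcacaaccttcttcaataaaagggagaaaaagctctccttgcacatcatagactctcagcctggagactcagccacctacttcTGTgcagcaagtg

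A pair of copies shows how alike segments can be. Trav16n (chr14:53351028-53351621) differs from Trav16 at 5 of 350 bases (98.6% identity), and the capitals mark the 4 of these that lie in its last 300 bases. Trav9n-1 (chr14:53101801-53102265), annotated as a pseudogene, was the second segment of PD1+ Tconv replicate 2. It differs from Trav9d-1 at 8 bases, of which the 7 in its last 300 are in capitals, and by 2 gap bases, which are not marked.
Trav16n: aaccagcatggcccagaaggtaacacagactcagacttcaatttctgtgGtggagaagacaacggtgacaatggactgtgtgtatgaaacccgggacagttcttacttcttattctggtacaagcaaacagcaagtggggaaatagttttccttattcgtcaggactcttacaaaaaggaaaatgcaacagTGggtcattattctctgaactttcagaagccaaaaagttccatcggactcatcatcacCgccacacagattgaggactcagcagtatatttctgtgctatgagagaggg
Trav9n-1: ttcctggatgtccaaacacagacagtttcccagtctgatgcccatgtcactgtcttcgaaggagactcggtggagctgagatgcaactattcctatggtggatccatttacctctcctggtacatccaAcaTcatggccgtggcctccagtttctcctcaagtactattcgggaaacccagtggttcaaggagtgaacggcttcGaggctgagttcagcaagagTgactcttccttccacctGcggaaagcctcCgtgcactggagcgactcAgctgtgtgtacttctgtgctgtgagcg

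Trav genes took few reads, and this sets how firmly any share can be stated. ILTCkP had 1555 and 2911 Trav counts in replicates 1 and 2, and CD8SP had 3927 and 3902. NK1.1+ ILTCk had 1771 and 291, NK1.1- ILTCk had 2003 and 659, and PD1+ Tconv had 5893 and 571. Library totals ran from 16530085 to 32097301 counts. NK1.1+ ILTCk replicate 2, with 291 Trav counts, had a total of 25058242, and PD1+ Tconv replicate 2, with 571, had the lowest total. A share of 0 allowed up to 0.0509% in the deepest and up to 1.03% in the shallowest library (3 counts of the Trav total). Intervals around shares below are 95% Clopper-Pearson intervals, and they and these limits cover counting error only, since reads are not independent molecules. Over all genes the replicates of each group differed far beyond sampling noise (chi-square per degree of freedom 21.1 to 840), so no library was counted as a repeat of another.

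The sort genes were checked against the labels. Levels are given as CPM, counts scaled to library size. Pdcd1, which encodes PD-1, had 4.5 to 28.9 CPM over the 4 ILTCk libraries, against 841 and 387 CPM in PD1+ Tconv, and 1208 and 1290 CPM in ILTCkP. Klrb1c, the gene of NK1.1, had 349 and 60.6 CPM in the NK1.1+ ILTCk libraries and 36.1 and 12.3 CPM in NK1.1- ILTCk. PD1+ Tconv had 44.1 and 1.8 CPM of Klrb1c, so its replicate 1 was above both NK1.1- ILTCk libraries. All 6 αβ T cell markers were detected in every library, with sums of 3272 and 506 CPM in the NK1.1+ ILTCk libraries, 1715 and 1025 CPM in the NK1.1- ILTCk libraries and 4980 and 2244 CPM in PD1+ Tconv. The 5 macrophage markers, all of them detected in these 6 libraries, summed to 5439 and 12192 CPM in the NK1.1+ ILTCk libraries, 2988 and 2120 CPM in the NK1.1- ILTCk libraries and 113 and 518 CPM in PD1+ Tconv. In the thymic libraries that sum was 15.3 to 22.9 CPM. In bulk samples fewer cells of a type and less RNA per cell cannot be told apart, so the tumour levels below stand beside these sums, and their part in the levels was not tested.

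Of the 128 segments 106 had a count in some library and 22 had 0 in all 10. In a library 75 to 91 segments had counts, apart from 49 in NK1.1+ ILTCk replicate 2, 69 in NK1.1- ILTCk replicate 2 and 55 in PD1+ Tconv replicate 2. The leading subgroup held 13.7 to 17.9% of Trav counts in the 8 libraries outside PD1+ Tconv. Trav12 led both ILTCkP and both NK1.1- ILTCk libraries, Trav14 led both CD8SP libraries and NK1.1+ ILTCk replicate 2, and Trav7 led NK1.1+ ILTCk replicate 1. The inverse Simpson index, the number of equally used segments that would give the same concentration, was 25.8 to 40.8 segments in these 8 libraries. Thus none of the 4 ILTCk libraries, although labelled retrogenic, had its Trav reads on 1 segment: the highest single share there was 8.59%. Nor did the PD1+ Tconv libraries, which carry the same label, with highest single shares of 27.8 and 18.6%.

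**Figure D1:**
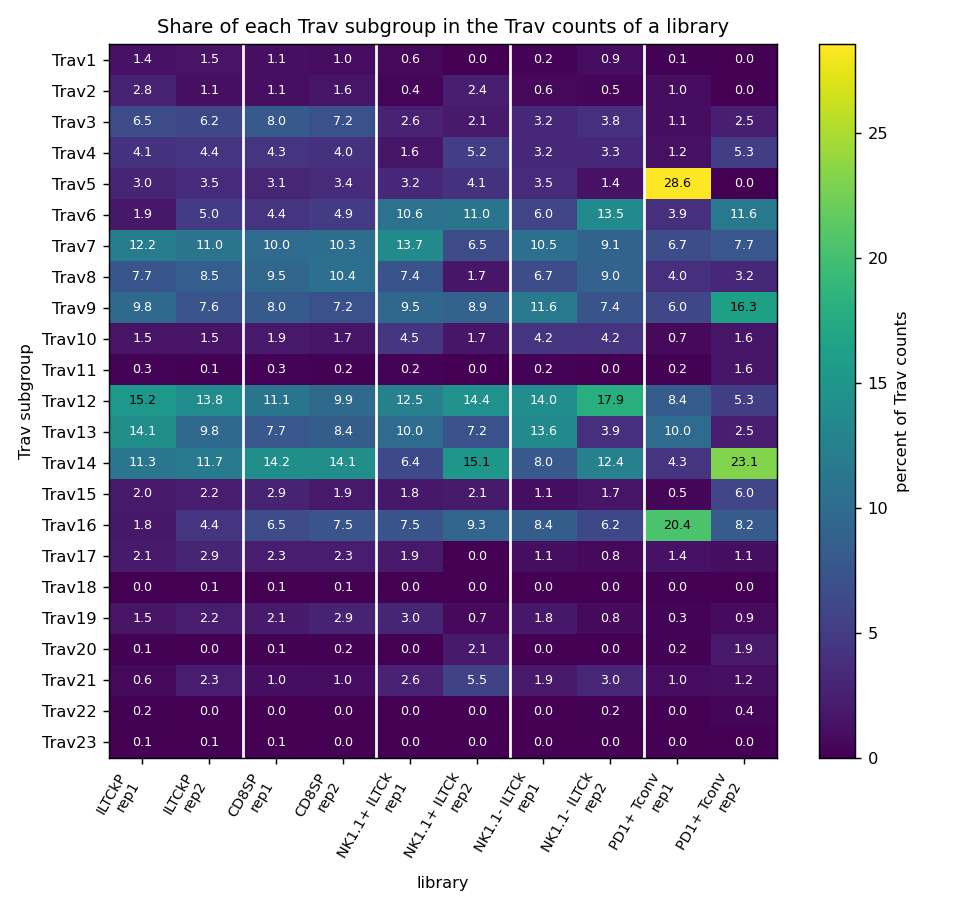
Share of each of the 23 Trav subgroups (rows) in the Trav counts of each of 10 libraries (columns), in percent, printed in each cell and coloured from dark (0) to yellow. The 8 columns of ILTCkP, CD8SP and both ILTCk groups stay at or below 17.9%, and the 2 PD1+ Tconv columns each hold a subgroup above that, Trav5 with 28.6% in replicate 1 and Trav14 with 23.1% in replicate 2.

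PD1+ Tconv libraries stood apart, and each did so with its own segments. In replicate 1 Trav5-1 had 1636 of 5893 Trav counts, 27.8% (95% interval 26.6 to 28.9%). Trav16 had 993 counts there, 16.9%, and Trav13-1 had 415 counts, 7.04%. In replicate 2 Trav14-1 led with 106 of 571 counts, 18.6% (95% interval 15.5 to 22.0%). Trav9n-1 had 76 counts there, 13.3%, and Trav16 had 42 counts, 7.36%. Trav16 was the only segment above 5% in both.

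Trav5-1 shows how far these replicates were apart. Outside PD1+ Tconv replicate 1 it had 13 and 28 counts in ILTCkP, 40 and 22 in CD8SP, 10 and 3 for NK1.1+ ILTCk, and 22 and 2 for NK1.1- ILTCk. PD1+ Tconv replicate 2 had 0 counts of Trav5-1 and of the whole Trav5 subgroup, which allows a share of up to 0.525%. Every 50-base window of Trav5-1 was unique to it, that is, found in no other annotated transcript. Trav5-1 made up 97.2% of the Trav5 counts of PD1+ Tconv replicate 1, whereas in the 8 libraries outside PD1+ Tconv Trav5-4 held 64.3 to 83.2% of them.

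Trav9n-1 had the same kind of pattern in the other replicate. It had 76 counts in PD1+ Tconv replicate 2 and 0 in replicate 1. It had 2 and 0 in ILTCkP, 2 and 2 in CD8SP, 8 and 0 for NK1.1+ ILTCk, and 4 and 2 for NK1.1- ILTCk. Of its 50-base windows 48.6% were unique, so its counts could in part be shared with its functional copies: Trav9d-1 and Trav9-1, each 97.1% identical to it, had 5 and 3 counts in PD1+ Tconv replicate 2. With it the pseudogenes' share was 17.7% in that library, against 1.13 to 2.88% in the other 9. How the authors' counting treated reads that match several segments is not given in the sources used here.

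Trav14-1, with 95.1% unique windows, had 106 counts in PD1+ Tconv replicate 2 and 33 in replicate 1. As shares of Trav counts, the whole Trav14 subgroup held 6.38 and 15.1% in the NK1.1+ ILTCk libraries and 7.99 and 12.4% for NK1.1- ILTCk. Both PD1+ Tconv libraries lay outside this range, with 4.26% (95% interval 3.76 to 4.81%) in replicate 1 and 23.1% (19.7 to 26.8%) in replicate 2. The beta chain was concentrated in the same libraries: the leading Trbv segment, the beta chain counterpart of Trav, took 12.0 to 17.2% of Trbv counts in the other 8 libraries, against 25.2% (Trbv13-1) and 36.3% (Trbv12-1) in PD1+ Tconv.

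The concentration can be put in 1 number per library. It took 15 and 10 segments to reach 50% of the Trav counts for NK1.1+ ILTCk and 13 and 13 for NK1.1- ILTCk, against 3 and 6 in PD1+ Tconv. In the thymus it took 14 and 16 segments in ILTCkP and 15 and 15 in CD8SP. Thinned to 291 Trav counts each, the effective number of segments was 36.6 and 25.8 in the NK1.1+ ILTCk libraries, 30.1 and 32.4 in the NK1.1- ILTCk libraries, and 8.27 and 14.0 in PD1+ Tconv. The ILTCk libraries did not overlap PD1+ Tconv on this scale, at equal depth. For subgroups the index averaged 11.3 ± 0.507 in the NK1.1+ ILTCk libraries and 7.46 ± 1.38 in PD1+ Tconv (SD, n = 2 each), a difference of 3.80, which was 1.98 with segments under 10 counts set to 0. In NK1.1- ILTCk it averaged 10.6 ± 0.704 (SD, n = 2), 3.13 above PD1+ Tconv. The leading subgroup's share was 14.4 ± 0.989% in the NK1.1+ ILTCk libraries and 15.9 ± 2.78% in the NK1.1- ILTCk libraries, against 25.8 ± 3.85% in PD1+ Tconv (SD, n = 2 each). Each of these 4 differences had an exact two-sided permutation p of 0.333, the smallest that 2 against 2 libraries can give, so the design could not pass 0.05. NK1.1+ and NK1.1- ILTCk overlapped in both measures (exact two-sided permutation p = 0.667 for each), and with segments under 10 counts set to 0 the NK1.1+ minus NK1.1- difference in the subgroup index was -1.14, against 0.664 with all segments.

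**Figure D2:**
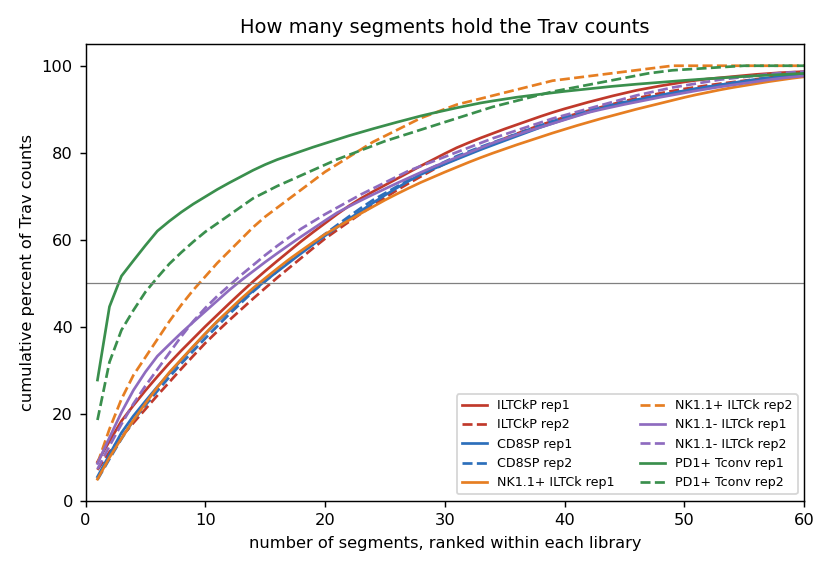
Cumulative percent of a library's Trav counts (vertical axis) held by its 1, 2, 3 and more highest segments (horizontal axis), 1 line per library, solid for replicate 1 and dashed for replicate 2. The lines of the other 8 libraries cross the grey line at 50% with 10 to 16 segments, and the 2 PD1+ Tconv lines with 3 and 6.

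**Figure D3:**
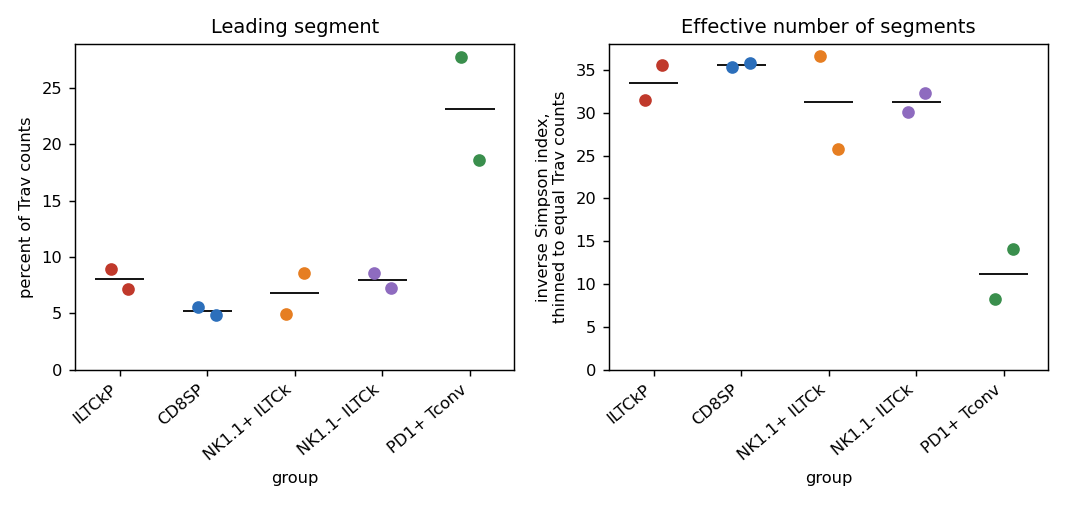
Left, share of the highest Trav segment in percent of Trav counts; right, effective number of segments (inverse Simpson index) after thinning to 291 Trav counts; each point is 1 library and each line the mean of 2. PD1+ Tconv is highest on the left, with 27.8 and 18.6%, and lowest on the right, with 8.27 and 14.0.

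Replicates shared less of their subgroup use in the tumour table than in the thymus. The overlap, the summed smaller share over subgroups, was 88.6% between the ILTCkP replicates and 95.1% between those of CD8SP. It was 75.4% in the NK1.1+ ILTCk libraries, 78.6% in the NK1.1- ILTCk libraries and 46.3% in PD1+ Tconv. These overlaps were not thinned to equal depth. Counting error lowers them where Trav counts are few, as in NK1.1+ ILTCk replicate 2 with 291. Against counting error alone, the chi-square per degree of freedom over subgroups was 6.45 in ILTCkP, 1.74 in CD8SP, 6.08 in the NK1.1+ ILTCk libraries, 8.35 in the NK1.1- ILTCk libraries and 55.8 in PD1+ Tconv. The replicates of each group thus differed by more than counting error, least in CD8SP. This value, which also depends on depth, was lower in NK1.1+ ILTCk than in ILTCkP.

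In tests of level across the whole tumour table, edgeR's quasi-likelihood test called no Trav subgroup or segment at an adjusted p under 0.05. In NK1.1+ ILTCk against PD1+ Tconv it called 0 of the 18 subgroups and 0 of the 52 segments that passed the filter on low counts, beside 0% of all features called. At an unadjusted p under 0.05 there were 0 subgroups and 3 segments, against 14.3% of all features, and DESeq2 called 0 subgroups and 1 segment, Trav16. In NK1.1- ILTCk against PD1+ Tconv edgeR again called 0 of 18 and 0 of 52, beside 0% of all features. There 1 subgroup and 4 segments had an unadjusted p under 0.05, against 11.9% of all features, and DESeq2 called 0 subgroups and 1 segment, again Trav16. Of all features DESeq2 called 6.75% in the subgroup fit and 6.91% in the segment fit for NK1.1+ ILTCk, and 3.8% in both fits for NK1.1- ILTCk. The comparisons share the PD1+ Tconv libraries.

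Trav16 had 50 and 23 counts in the NK1.1+ ILTCk libraries and 84 and 27 counts in NK1.1- ILTCk, against 993 and 42 in PD1+ Tconv. Its level differed from PD1+ Tconv by a log2 fold change of -3.42 ± 1.1 (SE) in NK1.1+ ILTCk, with an adjusted p of 0.255 by edgeR and 0.0161 by DESeq2. In NK1.1- ILTCk it was -3.23 ± 1.09 (SE), with an adjusted p of 0.369 by edgeR and 0.0378 by DESeq2. For the whole subgroup the values were -2.57 and -2.62, and with PD1+ Tconv replicate 1 left out they shrank to -0.08 and -0.13. As a share, Trav16 subgroup counts were 7.45 and 9.28% in the NK1.1+ ILTCk libraries and 8.39 and 6.22% in the NK1.1- ILTCk libraries, against 20.4 and 8.23% in PD1+ Tconv, so the ranges overlapped.

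Trav5 had a log2 fold change of level of -4.14 in the NK1.1+ ILTCk libraries and -4.42 in NK1.1- ILTCk against PD1+ Tconv. Both turned positive, to 8.11 and 7.83, with PD1+ Tconv replicate 1 left out, where the remaining library had 0 counts and the fitted value depends on the prior count. The Trav14 subgroup had -1.41 in the NK1.1+ ILTCk libraries and -1.14 in NK1.1- ILTCk against PD1+ Tconv. With 1 library left out the NK1.1+ value lay between -2.22 (without NK1.1+ ILTCk replicate 1) and -0.88 (without NK1.1+ ILTCk replicate 2). With shares in place of levels, taking the Trav total as library size, edgeR called 0 of 18 subgroups in every tumour comparison, with 0 at an unadjusted p under 0.05. Of all features it called 0.155% (NK1.1+ ILTCk over PD1+ Tconv), 0% (NK1.1- ILTCk over PD1+ Tconv) and 0% (NK1.1+ over NK1.1- ILTCk). In the same order 8.01, 2.52 and 1.69% of all features had an unadjusted p under 0.05, so 0 of 18 says little about the shares.

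Other subgroups took larger shares in the ILTCk libraries. Trav12 held 12.5 and 14.4% of Trav counts in the NK1.1+ ILTCk libraries and 14.0 and 17.9% in the NK1.1- ILTCk libraries, against 8.37 and 5.25% in PD1+ Tconv. Trav10 held 4.52 and 1.72% in the NK1.1+ ILTCk libraries and 4.24 and 4.25% in the NK1.1- ILTCk libraries, against 0.713 and 1.58% in PD1+ Tconv. All 4 ILTCk libraries lay above both PD1+ Tconv libraries for each, although shares must fall where another segment takes more. For Trav10 this rests on 5 counts (1.72%) in NK1.1+ ILTCk replicate 2 and 9 counts (1.58%) in PD1+ Tconv replicate 2, too few to tell apart. How many other subgroups separated in this way was not counted. Trav6 held 10.6 and 11.0% in the NK1.1+ ILTCk libraries and 5.99 and 13.5% in the NK1.1- ILTCk libraries, against 3.89 and 11.6% in PD1+ Tconv, and those ranges overlapped.

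Between NK1.1+ ILTCk and NK1.1- ILTCk edgeR called 0 of 18 subgroups and 0 of 52 segments, beside 0% of all features. There were 0 of either at an unadjusted p under 0.05, and DESeq2 called 0 of either, beside 0.316% of all features in the subgroup fit and 0.315% in the segment fit. Subgroup log2 fold changes of level lay between -0.55 (Trav4) and 2.66 (Trav20, with 12 or fewer counts in every library). Trav12-3 and Trav12-2 were both among the segments above 5% in NK1.1- ILTCk, with 102 and 48 counts of Trav12-3 and 119 and 35 of Trav12-2. Trav13-1 led NK1.1- ILTCk replicate 1 with 172 counts (8.59%) and had 9 counts in replicate 2. In NK1.1+ ILTCk replicate 1, Trav7-1 and Trav13-1 tied at 88 counts (4.97%), and in replicate 2 they had 1 and 9 counts, behind 25 of Trav14-2 (8.59%, 95% interval 5.64 to 12.4%). The segment at the top thus changed from replicate to replicate in both ILTCk groups.

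No subgroup's share was called between ILTCkP and CD8SP in the thymus, in a fit that could say little about shares. With the Trav total as library size, so that shares were tested in place of levels, edgeR called 0 of 18 subgroups and 0 had an unadjusted p under 0.05. In that fit, where the Trav total scaled every feature, 11.7% of all features were called and 37.7% had an unadjusted p under 0.05. The spread was estimated with all features so scaled, so 0 of 18 says little about the shares. The shares by library were as follows. Trav12 held 15.2 and 13.8% of Trav counts in ILTCkP, against 11.1 and 9.92% in CD8SP. Trav13 held 14.1 and 9.79% in ILTCkP, against 7.72 and 8.38% in CD8SP. Both were higher in each ILTCkP library than in either CD8SP library. Trav16 held 1.80% (95% interval 1.20 to 2.59%) and 4.36% (3.65 to 5.17%) in ILTCkP, against 6.52% (5.77 to 7.34%) and 7.48% (6.68 to 8.35%) in CD8SP. Trav14 held 11.3 and 11.7% in ILTCkP, against 14.2 and 14.1% in CD8SP. Trav3 and Trav8 also lay lower in both ILTCkP libraries, with 6.50 and 6.22% and with 7.65 and 8.49% in ILTCkP, against 8.0 and 7.18% and 9.47 and 10.4% in CD8SP. Trav7 lay higher, with 12.2 and 11.0% in ILTCkP against 10.0 and 10.3% in CD8SP. Trav10 lay lower, with 1.48 and 1.51% against 1.94 and 1.67%. That rests on 23 and 44 counts in ILTCkP against 76 and 65 in CD8SP, too few to tell 1.51 from 1.67%. These separations are of shares, and how common they were among the subgroups was not counted. By level, 0 of the 18 tested subgroups lay higher in both ILTCkP libraries, against 28.8% of all features. Lower by level were 14, against 29.4% of all features, and Trav7, higher by share, was among them.

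**Figure D4:**
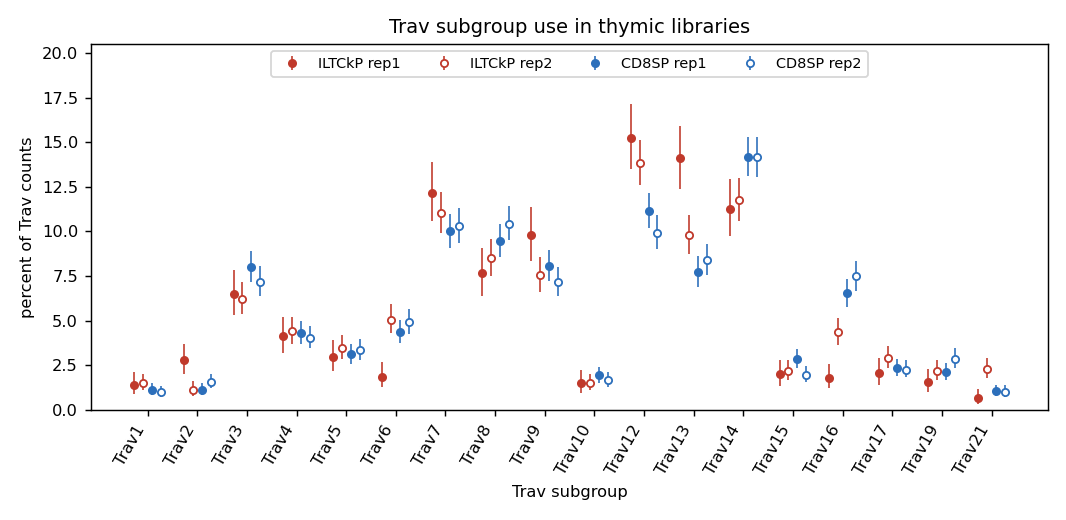
Percent of Trav counts (vertical axis) of each Trav subgroup that reached 1% in a thymic library, in ILTCkP (red) and CD8SP (blue), filled for replicate 1 and open for replicate 2, with 95% Clopper-Pearson intervals for counting error. Trav12 and Trav13 lie higher in ILTCkP, Trav14 and Trav16 lie lower, and the ILTCkP replicates are apart for Trav13, Trav16 and Trav6.

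Within these subgroups the values of single segments were uneven. Trav12-2 had 139 and 207 counts (8.94 and 7.11%) in ILTCkP, against 217 and 190 (5.53 and 4.87%) in CD8SP. Trav13-4-dv7, whose name marks a segment that can also join a delta chain, had 50 and 56 counts (3.22 and 1.92%) in ILTCkP, against 24 and 30 (0.611 and 0.769%) in CD8SP. It was higher in count as well as in share in both ILTCkP libraries, and 22.9% of its windows were unique. Trav16 had 7 and 45 counts (0.450 and 1.55%) in ILTCkP, against 90 and 128 (2.29 and 3.28%) in CD8SP. Its copy Trav16n had 17 and 72 counts in ILTCkP and 121 and 125 in CD8SP, and the delta-named copy Trav16d-dv11 had 4 and 10 in ILTCkP and 45 and 39 in CD8SP. All 3 segments of the subgroup were lower in both ILTCkP libraries. Trav14-1 had 48 and 87 counts in ILTCkP, against 197 and 185 in CD8SP.

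The level of Trav reads as a whole did not pass the test in the thymus, although both ILTCkP libraries lay below both CD8SP libraries. Scaled by TMM, the summed Trav level was 61.2 and 89.2 CPM in ILTCkP, against 135.5 and 123.6 CPM in CD8SP, a log2 fold change of -0.78 ± 0.27 (SE) with an adjusted p of 0.169 by edgeR. It was called by edgeR with either ILTCkP library left out, at an adjusted p of 0.0414 without replicate 1 (log2 fold change -0.53) and 0.000349 without replicate 2 (-1.09), in fits that called 17.5 and 44.7% of all features. It was not called with either CD8SP library left out, at an adjusted p of 0.735 without replicate 1 and 0.658 without replicate 2 by edgeR. With Trac counts as library size it was -0.43, with an adjusted p of 0.403 by edgeR. Trac, the constant gene, had 1166 and 1236 CPM before TMM scaling in ILTCkP, against 1756 and 1542 CPM in CD8SP, with a log2 fold change of -0.35 and an adjusted p of 0.363 by edgeR. The 4 markers of double-positive thymocytes summed to 11.7 and 26.0 CPM in ILTCkP and 79.8 and 41.8 CPM in CD8SP, and the 6 γδ T cell markers to 198 and 422 CPM in ILTCkP and 20.6 and 16.3 CPM in CD8SP. Their part in the Trav levels was not tested.

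Among single subgroups, edgeR called 0 of the 18 Trav subgroups that passed the filter, beside 4.73% of all features called. At an unadjusted p under 0.05 there were 4: Trav14 (log2 fold change of level -1.08 ± 0.37 SE), Trav16 (-1.85 ± 0.66), Trav3 (-1.05 ± 0.41) and Trav8 (-1.07 ± 0.40), with adjusted p-values of 0.169 to 0.211 by edgeR. That is 4 of 18, and 22.0% of all features had an unadjusted p under 0.05, so the subgroups stood at the background. DESeq2 called 1, Trav16 (adjusted p 0.0486), beside 13.8% of all features. All 18 log2 fold changes were below 0, with a median of -0.76 beside 0.01 over all features. In 14 of the 18 both ILTCkP libraries were below both CD8SP libraries, against 29.4% of all features. Since the 18 passed a filter through the libraries where they are high, these counts describe them and support nothing further.

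The calls depended on which ILTCkP library was used. Without ILTCkP replicate 2, which had the higher Trav total, edgeR called 6 of 19 subgroups as lower (Trav3, Trav6, Trav8, Trav14, Trav16 and Trav19), beside 44.4% of all features in that fit. Without ILTCkP replicate 1 it called 1 of 19, Trav16, beside 17.8% of all features. The share of subgroups called was thus below that of all features in both fits. In such fits the lone ILTCkP library is assumed to vary like those of CD8SP. At the level of segments edgeR called 0 of 57 tested, beside 4.71% of all features, with 6 at an unadjusted p under 0.05 (22.1% of all features had one) and 0 called by DESeq2, beside 13.8% of all features. Without ILTCkP replicate 2 it called 9 of 63, beside 44.8% of all features. Of the 57 segments, 37 were lower in both ILTCkP libraries, against 29.3% of all features, and 2 were higher, against 28.8%.

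The spread of use was close in the thymic groups. The effective number of subgroups was 10.5 and 12.2 in ILTCkP, against 12.2 and 12.2 in CD8SP, a difference of means of -0.888 (exact two-sided permutation p = 0.333, the smallest possible). The leading subgroup held 15.2 and 13.8% in ILTCkP and 14.2 and 14.1% in CD8SP (p = 1.0 in the same exact test). ILTCkP replicate 1 had both the lowest effective number and the highest leading share of the 4.

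The summed Trav level in the tumour table was 79.2 and 13.1 CPM in the NK1.1+ ILTCk libraries, 59.2 and 30.0 CPM in the NK1.1- ILTCk libraries and 187.9 and 46.2 CPM in PD1+ Tconv, scaled by TMM. Against PD1+ Tconv the log2 fold change was -1.34 ± 0.94 (SE) in NK1.1+ ILTCk (adjusted p 0.576 by edgeR) and -1.39 ± 0.94 (SE) in NK1.1- ILTCk (adjusted p 0.589 by edgeR). With PD1+ Tconv replicate 1 left out these became 0.013 and -0.033. NK1.1+ ILTCk replicate 2, with the lowest Trav level, had the highest macrophage marker sum, and the libraries overlapped between groups. The 6 γδ T cell markers summed to 889 and 111 CPM in the NK1.1+ ILTCk libraries and 465 and 189 CPM for NK1.1- ILTCk, against 1434 and 482 CPM in PD1+ Tconv. These sums overlapped, with 889 CPM in NK1.1+ ILTCk replicate 1 above 482 CPM in PD1+ Tconv replicate 2. Of these markers Trdc, the delta chain constant gene, was low in both ILTCk groups, and it does not stand for the list. It had 2.6 and 1.2 CPM in NK1.1+ ILTCk and 2.1 and 1.4 CPM in NK1.1- ILTCk, against 32.5 and 14.4 CPM in PD1+ Tconv. The part of these markers in the Trav level was not tested. Per Trac count, Trav reads were 37.5 and 27.5% in the NK1.1+ ILTCk libraries, 35.8 and 28.1% in the NK1.1- ILTCk libraries and 27.6 and 18.8% in PD1+ Tconv. NK1.1+ ILTCk overlapped PD1+ Tconv in this ratio, and both NK1.1- ILTCk libraries lay above both PD1+ Tconv libraries. In the thymic table the same ratio was 4.79 and 7.34% in ILTCkP and 7.91 and 8.40% in CD8SP. The tables had no library in common, and the reason for this gap between them was not tested.

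Trav counts were also summed by position along the locus. Of Trav counts, the 64 segments nearest the Traj cluster held 75.8 and 88.3% in the NK1.1+ ILTCk libraries and 80.3 and 71.8% in the NK1.1- ILTCk libraries, against 62.3 and 62.5% in PD1+ Tconv. Both differences, of 19.7 and 13.7 points, had an exact two-sided permutation p of 0.333. They shrank to 4.08 and 5.98 points when each subgroup was placed whole at its median position. Trav5-1, the fifth segment from the far end, and Trav9n-1 lie among the 64 away from Traj, while Trav14-1 and Trav16 lie among the 64 near it. In the thymus the near 64 held 78.8 and 82.9% in ILTCkP, against 79.9 and 79.2% in CD8SP (exact two-sided permutation p = 1.0). The 60 Traj rows had 0 counts in every library, so the joining segment of these chains could not be read.

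The segments of the invariant T cells were read separately. Trav11 encodes the alpha chain of invariant natural killer T cells in mice, and the subgroup had 5 and 4 counts (0.322 and 0.137%) in ILTCkP, against 13 and 6 (0.331 and 0.154%) in CD8SP. All of these thymic counts were listed under the pseudogene Trav11n. Trav11 and Trav11d differ by 1 gap base, and neither has a 50-base window of its own, so their reads cannot be told apart. If reads with several matches were dropped in counting, reads of these 2 copies would be missed. A low Trav11 sum thus does not show that such chains were absent. In the tumour table the subgroup had 4 and 0 counts in the NK1.1+ ILTCk libraries and 5 and 0 for NK1.1- ILTCk, against 11 and 9 (0.187 and 1.58%) in PD1+ Tconv. Of the PD1+ Tconv counts, 4 and 5 were listed under Trav11d and 6 and 0 under Trav11. Zbtb16, which encodes the transcription factor PLZF of innate-like T cells, had 242 and 77.7 CPM in ILTCkP, and 0 counts in both CD8SP libraries. Trav1, used by mucosal-associated invariant T cells, is unique in every window. It had 22 and 44 counts (1.41 and 1.51%) in ILTCkP, against 44 and 38 (1.12 and 0.974%) in CD8SP. In the tumour table Trav1 had 11 and 0 counts in NK1.1+ ILTCk, 5 and 6 in the NK1.1- ILTCk libraries and 8 and 0 in PD1+ Tconv.

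Near-identical copies limited what single segments could show. For 42 of the 128 segments no 50-base window was free of matches in another gene. Of these, 14 had 0 counts in every library, and the 42 together had 444 counts, 1.89% of all Trav counts. The median segment of this kind had 2.5 counts over the 10 libraries, against 252 for the 43 segments with 25 to 75% unique windows. Of 39 d copies 20 had no unique window, and of 34 n copies 19 had none, against 3 of the 55 segments with neither letter, which held 18462 counts. A segment near 0 can therefore be unused or unreadable, and the subgroup sums were used where copies were compared. The sums join reads split between copies, but do not restore any that were dropped for matching several copies. Whether reads were dropped is not known.

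**Figure D5:**
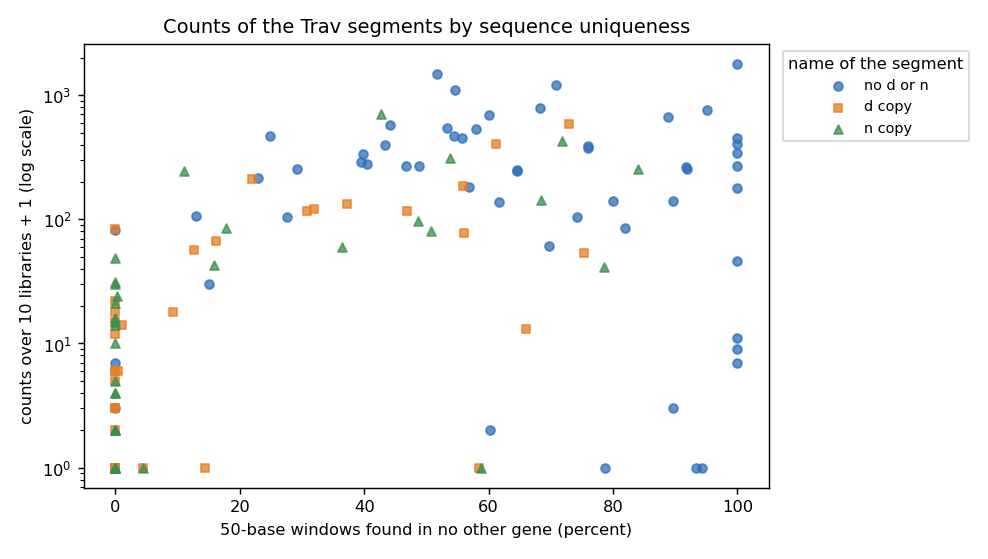
Total counts over 10 libraries plus 1 (vertical axis, log scale) of the 128 Trav segments against the percent of their 50-base windows found in no other gene (horizontal axis), by kind of name. The 42 segments at 0% stay at or below 82 counts, and the segments above 1000 counts have between 51.8 and 100% unique windows.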

How the data were processed

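Read counts per gene, in whole numbers, were deposited by the authors in 2 tables of bulk RNA-sequencing libraries. The build was mm10 and DESeq a tool of the authors, per the submitters' processing notes; the aligner, the counting program, the annotation and the treatment of strand and of reads with several matches were not given in the sources used here. The 4 single-cell libraries were not analysed here.

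From these counts, shares are percent of a library's Trav counts. Levels were tested with edgeR 4.0.16 (filterByExpr, TMM, glmQLFit with robust estimation, quasi-likelihood test) on each whole table, with Trav rows as segments, subgroup sums or 1 total, all libraries of a table in 1 fit, and Benjamini-Hochberg adjustment over all rows; features were called at an adjusted p under 0.05. DESeq2 1.42.0 was an alternative. Library measures were compared with exact permutation tests (scipy 1.17.1). Positions, sequences and 50-base windows came from GENCODE release M21 (GRCm38), and windows were compared with all its transcripts. Alternatives were RLE scaling, other filters, the compared libraries alone, the replicate number as a block, Trac or Trav counts as library size, shares per exon length, other segment sets, and each library left out.

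Named subgroups were those leading a library or holding at least 10% of any library's Trav counts, with Trav1, Trav10 and Trav11; named segments lead such a subgroup or hold at least 5% of a library. Others (Trav3, Trav8, Trav13-4-dv7, Trav16n, Trav16d-dv11, Trav19, Trav20, Trav21 and copies) were named after their values were seen. The members, lists and tests were chosen with earlier results of these data known.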

Additional observations from a re-analysis of the deposited data

How the results depend on the processing

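With counts this low, the summaries moved with several choices. For ILTCkP against CD8SP the number of subgroups called went to 1 with DESeq2, with no filter on low counts and with the replicate number as a block (Trav16 each time), in fits that called 13.8, 10.8 and 15.2% of all features, and lay between 0 and 6 with each library left out; segments lay between 0 and 9. No filter gave 1 segment and 1 subgroup for NK1.1+ ILTCk against PD1+ Tconv, and 2 and 1 for NK1.1- ILTCk against PD1+ Tconv; DESeq2 gave 1 segment in each. These fits without a filter called 3.91 to 3.92% (NK1.1+ ILTCk) and 2.5 to 2.51% (NK1.1- ILTCk) of all features. The log2 difference of the Trav total ranged, with each library left out, from -1.09 to -0.53 (ILTCkP over CD8SP), -3.16 to 0.013 (NK1.1+ ILTCk over PD1+ Tconv), -2.08 to -0.033 (NK1.1- ILTCk over PD1+ Tconv) and -1.77 to 0.83 (NK1.1+ over NK1.1- ILTCk, 0.05 with all libraries). With Trac counts as library size it reversed to 0.48 and 0.46 in the ILTCk comparisons with PD1+ Tconv, and with the replicate block to -0.40 for NK1.1+ over NK1.1- ILTCk. The Trav5 difference ranged from -5.63 to 8.11 and from -6.02 to 7.83. The cause of each of these shifts was not tested, apart from the library left out.

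With segments under 10 counts set to 0, the difference in effective subgroups was 1.98 for NK1.1+ ILTCk over PD1+ Tconv and -1.14 for NK1.1+ over NK1.1- ILTCk, and that in the leading share was -8.29 and 1.92 percentage points. On single segments the leading share differed by 2.83 (ILTCkP over CD8SP), -16.4 (NK1.1+ ILTCk over PD1+ Tconv) and -15.2 points (NK1.1- ILTCk over PD1+ Tconv); without delta-named segments it differed by 2.69 points for ILTCkP over CD8SP. With subgroups placed by their median position, the difference in the share near Traj was -2.09, 4.08, 5.98 and -1.9 points in the order ILTCkP over CD8SP, NK1.1+ and NK1.1- ILTCk over PD1+ Tconv, and NK1.1+ over NK1.1- ILTCk. Apart from the fits with a library left out, 77 alternatives were classed as the same for the summary results, 21 as moved and 3 as reversed. Here the same meant a library measure that changed by less than the pooled SD, or an unchanged number of calls. For a Trav total it meant that sign and call status were kept. For the single subgroups 61 alternatives were classed as the same and 5 as stronger. An unchanged 0 calls says little in tumour fits that called 0% of all features, so the tally is no measure of robustness. With a library left out, 3 alternatives of the summary results and 2 of the single subgroups were reversed.

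The replicate numbers are shared between groups but no label says that they pair the samples: correlations of same-numbered deviations from group means were 0.0918 in the thymic and 0.325 to 0.361 in the tumour comparisons, with 2 numbers each. With the replicate block in the segment fits edgeR called 755 features for NK1.1+ ILTCk and 298 for NK1.1- ILTCk over PD1+ Tconv, against 0 each without it, and 2212 against 689 for ILTCkP over CD8SP. It called 0 Trav segments in each and 0 tumour subgroups. With the block the Trav total was -1.49 ± 0.44 (SE, adjusted p 0.0950) for NK1.1+ ILTCk and -1.08 ± 0.44 (adjusted p 0.221) for NK1.1- ILTCk over PD1+ Tconv by edgeR. Tumour libraries with 291, 571 and 659 Trav counts limit the precision of single shares.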
